A study of Homo sapiens with 124 samples.

Results

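Chromosome 21 was described through its 355 usable bins of 100 kb, out of 26426 usable bins in all. Usable bins were those with a number for each cell in the deposited table and with reads in 1 cell or more. They lie on chromosomes 1 to 7, 10 to 21 and X and on the joined sequences labelled 9:22 and 22:9. The term genome means these 22 sequences here, so it is not complete, and chromosome 15 enters it with 512 usable bins. All positions are on the hg19 build. The bins were divided at 31 Mb into a proximal part of 184 bins, nearer the centromere and known as gene-poor, and a distal part of 171 bins, known as gene-rich. All samples were single haploid cells of KBM7, a human line from a chronic myeloid leukaemia, from clone 14, and all carried a fusion of the bacterial methyltransferase Dam to LaminB1. Dam was stabilised with 0.5 nM Shield1 for 15 h, and the sort took the 2% smallest cells among those positive for both Fucci markers, which report the phase of the cell cycle. Of 124 labelled samples, 118 had values and formed a single group, while samples 33, 34, 44, 86, 95 and 120 were not analysed here. Every value comes from a single clone, and the labels name no separate cultures. SDs therefore give the spread between these cells. The p-values treat these cells as units and reach no other clone or culture.

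The nuclear lamina is a protein mesh under the inner nuclear membrane, and B-type lamins such as LaminB1 are part of it. Long gene-poor stretches of chromosomes, called lamina-associated domains, tend to lie against it, while gene-dense and active chromatin tends to lie in the interior. In DamID the fused Dam methylates adenines in GATC motifs that come near the lamina in the living cell, so the mark records contact over the time of induction. Chromosome 21 is a small acrocentric chromosome. Its short arm carries ribosomal RNA genes and lies near the nucleolus, another compartment known to hold silent chromatin, and trisomy of the chromosome causes Down syndrome. The genes on its long arm are distributed unevenly. In RefSeq's gene order on GRCh38.p14, 29 named protein-coding genes precede the glutamate receptor gene GRIK1, counted from the short arm, and 186 follow it. Those before it include NCAM2, a neural cell adhesion gene, and APP, which encodes the amyloid precursor protein. The first 2 after it are the claudin genes CLDN17 and CLDN8. SOD1, which encodes a superoxide dismutase, RUNX1, a transcription factor of blood cells, DYRK1A, a kinase gene, and the collagen genes COL6A1 and COL6A2 follow further on. This table is of another build than the files, so no gene was placed in a bin.

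The value of a bin is a ratio of observed to expected reads, and a bin was counted as in contact in a cell at a value of 1 or more. For each cell the contact share gives the percentage of bins in contact. For each bin the contact frequency gives the percentage of cells that had it in contact. Recovered reads per cell ran from 28372 to 385661, with a median of 135782.5, and on chromosome 21 it took 5.65 reads to reach a value of 1 in the median cell and bin. Bins with no read made up 53.0% ± 16.9 of chromosome 21 and 45.5% ± 14.4 of the rest of the genome per cell (SD, n = 118). The longest stretch without usable bins, from 11.2 to 14.3 Mb, cut off 17 bins that lie on its short-arm side. In the median of those 17 bins 0.249 reads gave a value of 1 in the median cell. In 14 of them it stood for under 1 read, so that a single read made a contact, and in the other 3 for 1.05 to 1.89 reads. The differences of the proximal part from the distal part and from the rest of the genome are also given without these bins.

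In 4 cells chromosome 21 had almost no reads. Cell 83 had 29 reads on the chromosome of 163314 in all, cell 45 had 36 of 168059, cell 80 had 15 of 128342 and cell 58 had 13 of 38475. The other 114 cells had 98 to 3597 reads there, with a median of 1345.5. The mean ratio over the chromosome was 0.0155 in cell 83, 0.0192 in cell 45, 0.0281 in cell 80 and 0.0556 in cell 58, and 0.156 to 1.78 in the other cells. Reads were also scarce in the bins that few cells had in contact. In cell 83 the mean ratio of bins at 5% or less was 0.00303 on chromosome 21 and 0.0529 elsewhere in the genome, and in cell 45 it was 0.0146 on chromosome 21 and 0.0617 elsewhere. In the other 114 cells the mean on chromosome 21 ran from 0 through a median of 0.0259 to 0.441, and elsewhere it had a median of 0.0399. A mean of 0 in these bins of chromosome 21 was found in 5 of the other cells too, so this measure alone did not separate the 4 cells. The rest of the genome in the 4 cells had contact shares of 35.9% in cell 83, 30.9% in cell 45, 34.9% in cell 80 and 21.3% in cell 58. Such cells were not particular to chromosome 21. A mean ratio under 0.1 was also found in 4 cells for chromosome 20, 1 cell for chromosome 13, 2 for chromosome 15, 11 for chromosome 17 and 61 for chromosome 19, which is very rich in genes. What set the 4 cells apart was not tested. The tested differences, some of the correlations and the values of the domains are also given without them. None of the 4 had any contact beyond the gap, so each of them is among the cells counted below as having no contact in a stretch there.

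The first comparison asked how much more of the gene-poor part than of the gene-rich part of the chromosome touched the lamina in the same cell. The proximal part had a contact share of 41.5% ± 15.9 and the distal part 8.81% ± 6.87 (SD, n = 118). The lowest proximal share was 0.543%, in cell 45, the median was 41.6% and the highest was 73.4%, in cell 29. Distal shares ran from 0% in 10 cells through a median of 7.60% to 28.1% in cell 97. The proximal share was higher in 118 of 118 cells, by 32.7 ± 14.8 percentage points (adjusted p = 1.4e-05, two-sided permutation test by sign flips over cells, adjusted over 7 differences). The unadjusted p of 1e-05 is the smallest that 100000 permutations can give. Without the 17 bins before the gap, the difference was 33.8 points and the proximal share was higher in 114 cells, the 4 cells with almost no reads having no contact in either part. With these bins kept and those 4 cells left out, the difference was also 33.8 points, and the proximal share was higher in all 114 cells. The 2 sets of cells by sample number differed in size. The 90 cells numbered 1 to 94 had a difference of 34.3 points, and the 28 cells numbered 96 to 124 had 27.7 points. These sets were seen in the data and are not groups of the study.

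**Figure D1:**
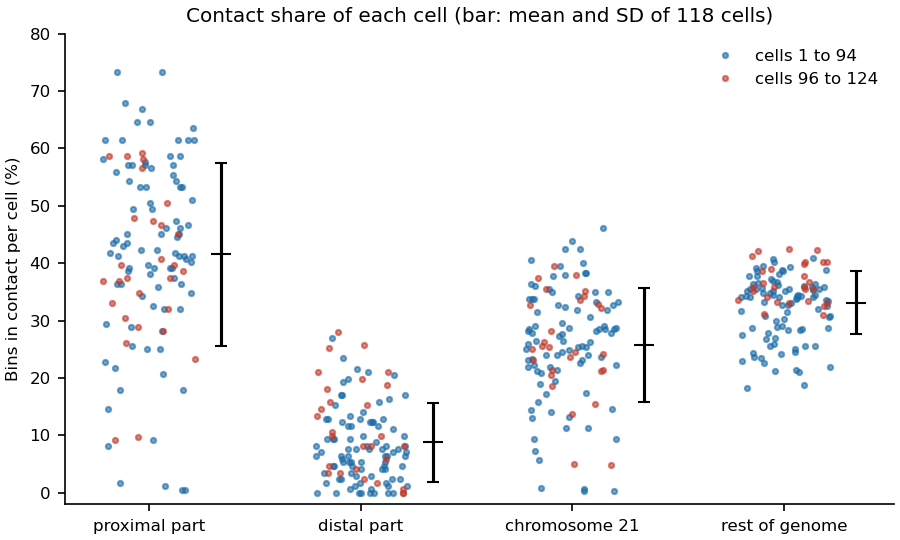
Percentage of bins in contact per cell (vertical axis) in the proximal part, the distal part, all of chromosome 21 and the rest of the genome, with 1 point per cell coloured by sample number. Bars give the mean and SD of 118 cells. Proximal shares average 41.5% and reach 73.4%, while distal shares average 8.81% and stay at or below 28.1%.

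Against the rest of the genome, the 2 parts lay on opposite sides. The rest of the genome had a contact share of 33.1% ± 5.50 (SD, n = 118). Its lowest share was 18.3%, in cell 89, and its highest 42.4%, in cell 97. The proximal part was 8.45 ± 15.6 percentage points higher and exceeded it in 85 of 118 cells (adjusted p = 1.4e-05, permutation test). That excess was 10.3 points in cells 1 to 94 and 2.36 points in cells 96 to 124, where the test on these cells alone gave an adjusted permutation p of 0.416. The distal part differed from the rest by -24.3 ± 7.05 points and was lower in 118 of 118 cells (adjusted p = 1.4e-05, permutation test), with -24.0 points in cells 1 to 94 and -25.3 points in cells 96 to 124. The whole of chromosome 21 had 25.8% ± 9.93, a difference of -7.31 ± 9.80 points from the rest, and was lower in 88 of 118 cells (adjusted p = 1.4e-05, permutation test).

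Chromosome 21 was also set against chromosomes 13 and 14, which are also acrocentric, and chromosome 20, which is also small. Its share minus that of chromosome 13, which was 38.9%, was -13.1 ± 12.5 points, and it was lower in 106 of 118 cells (adjusted p = 1.4e-05, permutation test). Against chromosome 14, at 31.5%, the difference was -5.74 ± 11.9 points, and it was lower in 79 cells (adjusted p = 2.33e-05, permutation test). It was 4.99 ± 13.2 points above the 20.8% of chromosome 20, and higher in 81 cells (adjusted p = 7e-05, permutation test). In cells 96 to 124 the last difference was -0.901 points with an adjusted permutation p of 0.732, so the order of chromosomes 21 and 20 was not the same in both sets. Chromosome 15, also acrocentric, was not in the tests. Its share was 26.0%, from 512 usable bins, and chromosome 21 was higher in 61 of 118 cells. By mean share chromosome 21 ranked 17th of 22 sequences. Its spread between cells, a coefficient of variation of 38.5%, was exceeded by 6 sequences.

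Few bins of the chromosome were in contact in nearly every cell. Only 1 of 355 bins, or 0.282%, was at 80% or more, whereas 15.1% of all usable bins of the genome, chromosome 21 included, reached that frequency. That bin, from 11.1 to 11.2 Mb, lies before the gap, had contact in 84.7% of cells, and a value of 1 stood there for 1.89 reads in the median cell. After the gap the highest bins were the 2 adjoining bins from 28.4 to 28.6 Mb, each in contact in 94 of 118 cells, or 79.7% (exact Clopper-Pearson 95% interval 71.3 to 86.5%). In the first of these the ratio ran from 0 through a median of 2.09 to 8.74. The bin at 26.1 Mb followed with 78.8%, and the bins at 18.1 and 26.4 Mb had 77.1% each. Without the 4 cells with almost no reads, the share of bins at 80% or more was 1.13%. The contrast with the genome was smaller at higher contact values. At a contact value of 1.5 the share was 0.282% on chromosome 21 and 2.91% of all usable bins. At a contact value of 2 it was 0% on chromosome 21 and 0.0946% of all usable bins. Intervals cover the counting of cells only, and reads amplified by PCR are not independent molecules.

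Intermediate and absent contacts made up most of the chromosome. At 20 to under 80% were 161 bins, 45.4% of the chromosome, against 33.9% of all usable bins, and 135 of them were proximal and 26 distal. A further 98 bins, 27.6%, were above 0 and under 20%, against 28.8% of all usable bins. No contact in any cell was seen in 95 bins, 26.8%, against 22.3% of all usable bins, and all 95 were distal, 55.6% of that part. A count of 0 in 118 cells allows up to 2.54% when 3 counts are taken as the limit, and the exact upper bound is 3.08%. At 40% or more were 115 bins, 32.4%, against 39.5% of all usable bins, and 100 of these were proximal and 15 distal. At 5% or less were 140 bins, 39.4%, against 38.8% of all usable bins, and 15 of these were proximal and 125 distal. These shares depend on the contact value. At a value of 0.5, bins at 80% or more made up 10.7% of chromosome 21 and 26.8% of all usable bins, and bins without contact in any cell 8.73 and 4.95%. At a value of 2 the shares without contact were 36.6% on chromosome 21 and 35.9% of all usable bins.

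**Figure D2:**
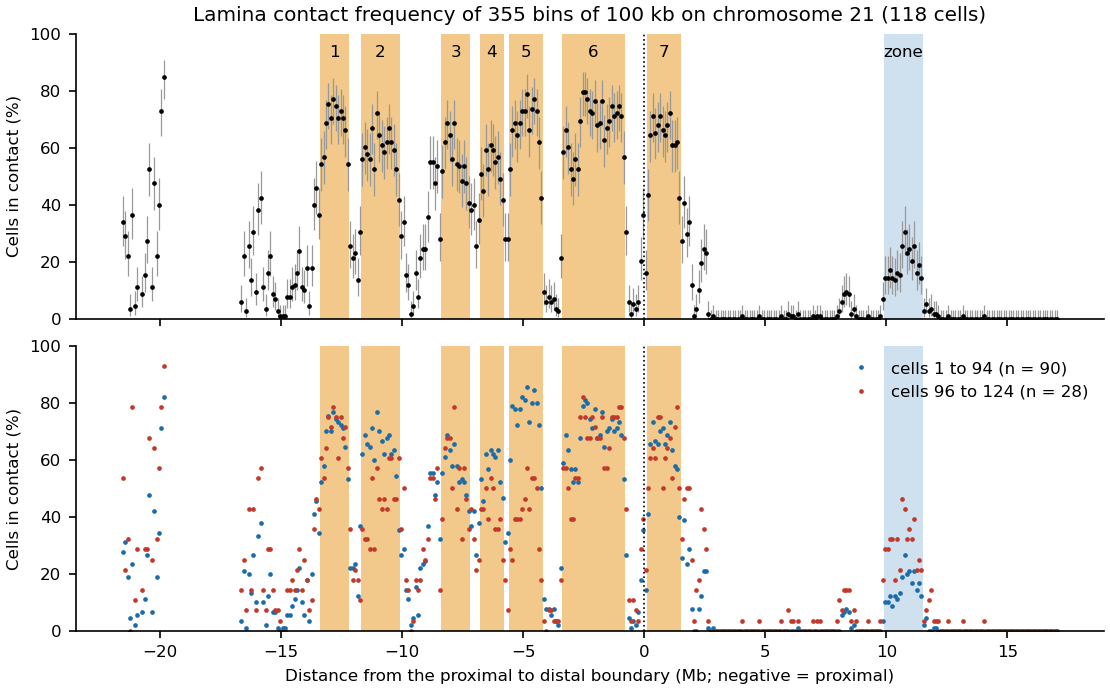
Percentage of cells in contact (vertical axis) for each of the 355 bins against distance in Mb from the boundary between the parts, negative on the proximal side. The upper panel shows all 118 cells with exact 95% intervals and the lower panel the 2 sets by sample number, with the 7 frequent domains and the distal zone shaded. Contact is arranged in separate blocks, block 7 lies on the distal side of the boundary, and most bins beyond it are at or near 0%.

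Frequent contact was arranged in separate blocks. Taking stretches of at least 10 consecutive bins at 40% or more, a rule chosen after the values were seen, gave 7 domains of 10.4 Mb in all. They held 71.4% of the contacts of the chromosome in 29.3% of its bins. Since the rule picks bins by frequency, a share of contacts above the share of bins was fixed in advance. The like shares over the genome were not counted. No test was made on the domains, because the frequencies chose them. Counted from the centromere, domain 1 spans 17.6 to 18.8 Mb, domain 2 spans 19.3 to 20.9 Mb and domain 3 spans 22.6 to 23.8 Mb. Domain 4 spans 24.2 to 25.2 Mb, domain 5 spans 25.4 to 26.8 Mb and domain 6 spans 27.6 to 30.2 Mb. Domain 7, from 31.1 to 32.5 Mb, lies beyond the 31 Mb boundary and so in the distal part.

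The domains differed modestly in mean frequency and widely between cells. Domain 1 had 67.6% ± 33.0 of its bins in contact per cell, with a median of 79.2%, and ran from no contact in 14 cells to full contact in 29 (SD, n = 118). Domain 6, the longest at 2.6 Mb, had 67.5% ± 31.2, with a median of 80.8%, no contact in 5 cells and full contact in 16. Domain 5 had 67.1% ± 34.8, with a median of 82.1%, no contact in 17 cells and full contact in 25. These 3 domains lay within 1 percentage point of each other, far inside their spread between cells. Domain 7 had 62.8% ± 34.1, with no contact in 12 cells and full contact in 25. Domain 2 had 59.3% ± 35.3, with no contact in 15 cells and full contact in 11. Domains 3 and 4 were the lowest, at 55.7% ± 34.9 and 53.1% ± 36.0, and 20 cells had no contact in domain 4. Without the 4 cells with almost no reads, the means of the 7 domains were 1.86 to 2.37 points higher, and the cells with no contact were 4 fewer in each, which leaves 1 cell in domain 6. Cells with full contact and cells with none were still both seen in every domain.

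The 2 sets of cells by sample number did not differ alike in all domains. In domain 5, cells 1 to 94 had a mean of 75.4%, and cells 96 to 124 had 40.3%. Domain 2 had 63.8 and 45.1% in these sets, and domain 4 had 56.7 and 41.4%. In domain 1 the sets had 67.6% each, in domain 6 they had 68.1 and 65.5%, and in domain 7 they had 62.8 and 63.0%. The sets thus differed by over 15 points in domains 2, 4 and 5 and by under 4 points in domains 1, 3, 6 and 7. The differences were not tested, since the sets were seen in the data.

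Some stretches had contact in nearly as many cells as had none. Bins at 40 to under 60% formed 25 stretches over the whole of chromosome 21, and the 5 longest were short and lay in the proximal part. The share of such bins over the genome was not counted. The longest, from 23.2 to 23.8 Mb in domain 3, had a mean of 49.6%, with full contact in 28 cells and none in 23. The stretches from 24.7 to 25.2 Mb and from 24.2 to 24.6 Mb, both in domain 4, had means of 52.4 and 51.9%. The stretch from 22.1 to 22.5 Mb, just before domain 3, had 52.8%. The stretch from 27.9 to 28.3 Mb had 52.5% and is a dip inside domain 6, whose highest bins lie just beyond it.

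Stretches of rarer contact lay between the domains. The largest step in frequency between the means of 3 bins on either side was at 30.2 Mb, where domain 6 ends, with 67.5% before and 12.7% after it. The next was at 27.6 Mb, where domain 6 begins, with 9.04% before and 61.6% after it. Domain 5 ended with a step of -51.4 points at 26.8 Mb. Domain 6 was therefore bounded by the steepest edges of the chromosome. At 31 Mb itself, where the parts were divided, the frequency was not lower on the distal side, with 20.9% before and 41.2% after it.

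The stretch between domains 5 and 6 from 26.8 to 27.5 Mb had a mean frequency of 5.93% ± 15.1 per cell, and 93 of 118 cells had no contact in it. In the 69 cells where both flanking domains had over 50% of their bins in contact, its mean was 8.70%, and 49 of those cells had no contact in it. The stretch from 30.3 to 30.8 Mb between domains 6 and 7 had 4.41% and no contact in 103 cells. In the 66 cells with both flanks over 50%, its mean was 6.06%, and 54 of them had no contact in it. These stretches were chosen for low frequency over all cells, which limits how high their means could be in any such subset. The stretch from 15.6 to 16.4 Mb, nearer the centromere, had 4.45% ± 12.8, and 101 cells had no contact in it. The whole gap between domains 5 and 6, from 26.8 to 27.6 Mb, had means of 11.4% in cells with both flanks over 50%, 3.88% with 1 such flank and 1.25% with neither. That between domains 6 and 7, from 30.2 to 31.1 Mb, had 20.7, 6.48 and 4.37% in the same order. Contact was more frequent in the other 4 gaps. The gap from 18.8 to 19.3 Mb between domains 1 and 2 had 34.0, 16.0 and 2.40% in that order, and the one from 20.9 to 22.6 Mb between domains 2 and 3 had 37.7, 27.1 and 9.15%. The gap from 23.8 to 24.2 Mb between domains 3 and 4 had 34.5% ± 36.8, and its mean was 63.8% in the 47 cells with both flanks over 50%, 24.2% in the 32 cells with 1 such flank and 7.69% in the 39 cells with neither. The gap of 2 bins between domains 4 and 5 had 28.0% ± 40.1, with 50.9% in the 53 cells with both flanks over 50%, 12.8% in the 39 cells with 1 and 3.85% in the 26 cells with neither. In all 6 gaps the mean was highest with both flanks in contact and lowest with neither. The flanks also sort cells by their contact on the chromosome, and the cells with neither include the 4 with almost no reads. This order is therefore no test of the gaps.

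In the first bins after the gap, contact was rarer than further on. The 17 bins before the gap had a mean share of 30.7%. Among them, the bins at 11 and 11.1 Mb had 72.9 and 84.7%, with few reads behind a value of 1. From 14.3 to 17 Mb the mean frequency was 13.4% ± 14.2 per cell, and from 17 to 31 Mb it was 48.3% ± 19.3 (SD, n = 118). In the 11 bins from 14.3 to 15.4 Mb a value of 1 stood for under 1 read in the median cell, so frequencies there rest on single reads. The low frequency continued from 16 to 17 Mb, where 6.06 reads stood behind a value of 1 and the mean was 10.1%.

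In the distal part most of the contacts lay next to the boundary. The 1.5 Mb from 31 to 32.5 Mb held 59.4% of all distal contacts, with a mean frequency of 59.7%. Domain 7 was the only distal stretch of at least 3 bins at 40% or more. Its highest bin, at 32 Mb, was in contact in 85 of 118 cells, or 72.0%, with a median ratio of 2.19. Beyond 32.5 Mb the contact share was 3.92% ± 5.26 per cell, from 0% in 36 cells to 21.8%. The fall came in steps, since 4 bins from 32.5 to 32.9 Mb still had 27.1, 40.7, 29.7 and 33.9%. A short rise followed at 33.4 Mb, where 29 cells were in contact, or 24.6%, and in the bin at 33.7 Mb no cell was. Placing the boundary at 32 Mb raised the difference of the proximal over the distal part to 36.8 points, and at 30 Mb it was 32.9 points.

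The rest of the distal part held the longest stretches of rare contact. From 33.6 to 39.1 Mb the mean frequency was 0.293% ± 1.30, and 110 of 118 cells had no contact in these 5.5 Mb. From 42.7 to 48.1 Mb, the last 5.4 Mb of the table, it was 0.235% ± 1.01, and again 110 cells had none. From 39.5 to 40.8 Mb it was 0.587% ± 2.87, and 112 cells had none. The few contacts there were more frequent in cells 96 to 124, at 1.04, 0.860 and 1.65%, than in cells 1 to 94, at 0.061, 0.041 and 0.256%. The part of background reads in this was not tested. The longest such stretches of the proximal part were much shorter, 0.4 Mb from 15.8 to 16.2 Mb and 0.2 Mb from 21.3 to 21.5 Mb.

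Within the distal part a zone from 40.9 to 42.5 Mb stood out from this background. Its 16 bins were in contact in 13.6 to 30.5% of cells, each at 10% or more, and the mean per cell was 19.0% ± 30.3 (SD, n = 118). No contact was seen there in 63 cells, while 19 cells had over 50% of the zone in contact and 3 cells all of it. The zone was thus bare in most cells and broadly in contact in some. Its highest bin, at 41.7 Mb, was in contact in 36 of 118 cells. Cells 1 to 94 had a mean of 15.3% there, and cells 96 to 124 had 30.6%. The part of background reads in that difference was not tested either. A smaller rise at 39.1 to 39.5 Mb reached 9.32%.

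Cells differed in how many of the 7 domains they held against the lamina. On average 4.43 ± 2.03 domains had over 50% of their bins in contact (SD, n = 118). All 7 did so in 17 cells, 6 in 26 cells, 5 in 23 cells and 4 in 21 cells. Without the 4 cells with almost no reads the mean was 4.59 ± 1.89 domains (SD, n = 114). Fewer cells had 3 domains in contact, 9 cells, or 2, also 9, or 1, with 4 cells. In 9 cells no domain passed 50%, and 4 of these were the cells with almost no reads. The other 5 had some contact beyond the gap. Cell 29 had the highest share of the chromosome in contact, 46.2%, with all 7 domains and 17.0% of the distal part in contact.

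**Figure D3:**
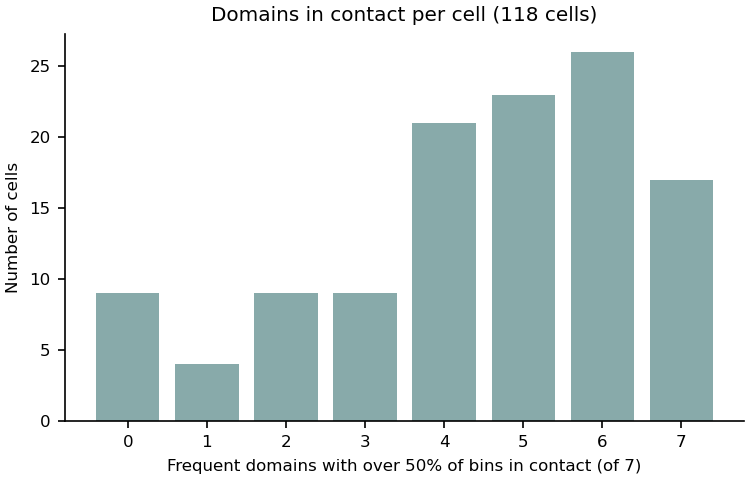
Number of cells (vertical axis) by how many of the 7 frequent domains had over 50% of their bins in contact (horizontal axis), for 118 cells. The highest bars are at 6 and 5 domains, with 26 and 23 cells, and 9 cells had none, 4 of which had almost no reads on the chromosome.

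Contact of neighbouring domains went together over cells. Over 118 cells, the Pearson correlation of the shares in contact averaged 0.539 for the 6 pairs of neighbouring domains, from 0.350 to 0.627, and 0.311 for the 15 pairs with other domains between, from 0.090 to 0.463. These are descriptions over cells, and the points share the library, the depth and the contact share of each cell. After the contact share of the rest of the genome was removed by regression, the averages were 0.535 and 0.323. Without the 4 cells with almost no reads they were 0.480 and 0.220, so the correlation between far domains was lower without them. In cells 96 to 124 they were 0.449 and 0.207.

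Domains 6 and 7, which lie on opposite sides of the 31 Mb boundary, had a correlation of 0.613, near the top of the range of neighbours. Both passed 50% in 66 cells, only domain 6 in 16, only domain 7 in 8 and neither in 28. Domains 1 and 2 had 0.627, the highest, and both passed 50% in 63 cells. The lowest among neighbours, 0.350, was that of domains 2 and 3, which are also the farthest apart of the neighbours, with 1.7 Mb between them. Domains 3 and 7 had 0.090 at a distance of 7.3 Mb between their edges, the lowest of all pairs of domains, while domains 1 and 7 had 0.402 at 12.3 Mb. Distance alone therefore did not order the pairs.

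**Figure D4:**
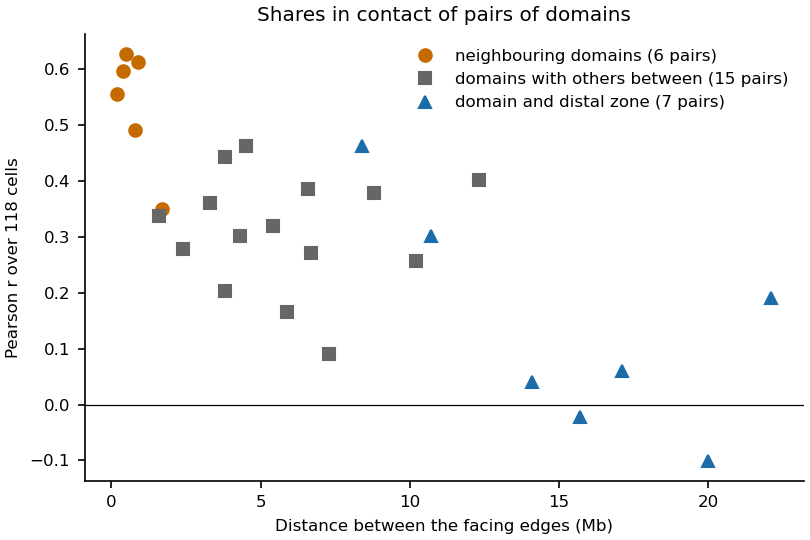
Pearson correlation over 118 cells of the shares in contact (vertical axis) against the distance in Mb between the facing edges (horizontal axis) for pairs of the 7 domains, and for each domain with the distal zone. Neighbouring domains lie between 0.350 and 0.627, and the distal zone correlates most, at 0.463, with domain 7.

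Cells with the distal zone in contact were set beside all 118 cells by the domains they had in contact. Of the 19 cells with over 50% of the zone in contact, 18 also passed 50% in domain 7, 18 in domain 1 and 17 in domain 6. Over all 118 cells these counts were 74, 83 and 82. In domain 5 it was 13 of the 19, in domain 3 it was 12, and in domains 2 and 4 it was 9 each. Over all cells the counts were 85, 66, 73 and 60 for domains 5, 3, 2 and 4. As a share, the 19 cells stood above all cells in domains 7, 1 and 6 and, by a smaller margin, in domain 3. In domains 2, 4 and 5 they stood below all cells, by little in domains 4 and 5, and no test was made. The correlation of the zone with domain 7 was the highest, 0.463 over 118 cells, 0.453 without the 4 cells with almost no reads, and 0.391 and 0.703 in the 2 sets. With domain 6 the zone had a correlation of 0.302, with domain 1 it had 0.190, and with domains 2 to 5 it ran from -0.100 to 0.059. The shares of the whole proximal and distal parts had a correlation of 0.364 (Spearman's rho 0.387), which was 0.292 without the 4 cells. That of the proximal part with domain 7 was 0.516 (rho 0.453), and with the distal part beyond domain 7 it was 0.215 (rho 0.325). The proximal part thus went together more with domain 7 than with the bins beyond it, by a smaller margin in ranks.

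**Figure D5:**
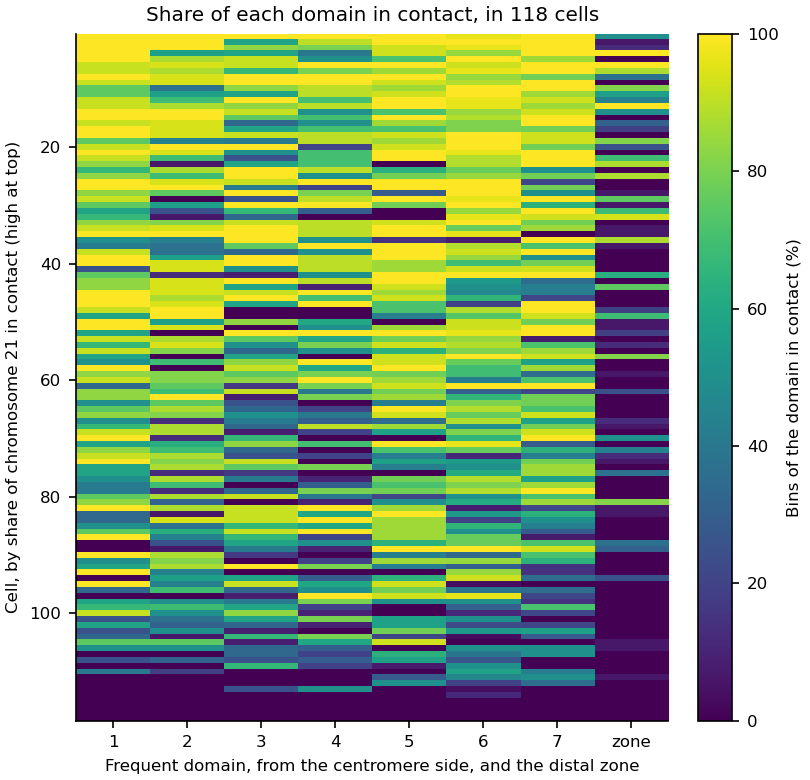
Share of bins in contact (colour, 0 to 100%) for the 7 domains and the distal zone (columns, from the centromere side) in each of 118 cells (rows, ordered by the contact share of chromosome 21). All domains are mostly in contact in the top rows, single domains drop out in the middle rows, and the bottom rows include the 4 cells with almost no reads. The zone is at 0% in 63 cells.

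Contacts on the chromosome came in runs, that is, in series of consecutive usable bins. Chromosome 21 had 23.2 ± 7.99 runs per cell (SD, n = 118), the fewest being 1, in cell 45, and the most 46, in cell 121. Their mean length was 0.401 ± 0.167 Mb, and that of runs in the rest of the genome was 0.508 ± 0.102 Mb. Runs of at least 1 Mb held 41.5% ± 26.0 of the contacts of chromosome 21 and 53.3% ± 10.5 of those of the rest of the genome. The longest run was 5.4 Mb, from 27.5 to 32.9 Mb in cell 71. It crossed the boundary at 31 Mb and covered domains 6 and 7 together with the stretch between them that few cells had in contact. The next longest, both of 4.8 Mb, were from 24.1 to 28.9 Mb in cell 69 and from 22 to 26.8 Mb in cell 93. In 39 cells the centre of the longest run lay in domain 6, more often than in any other domain, which is also the longest. Domain 7 held it in 14 cells. Without the 4 cells with almost no reads there were 24.0 ± 6.99 runs per cell with a mean length of 0.411 Mb. No test was made on run lengths between chromosome 21 and the rest.

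The proximal part held 84.9% ± 10.3 of the contacts of the chromosome per cell, from 57.1% in cell 116 to 100% (SD, n = 118). Cell 97, with the highest distal share of 28.1%, had a proximal share of 37.0%. A high distal share thus did not need a high proximal one.

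The share of chromosome 21 in contact correlated weakly with that of other chromosomes in the same cell. Over 118 cells its share had a correlation of 0.301 with that of the rest of the genome and 0.257 with the recovered reads. After the contact share of the other sequences was removed, its correlation with single sequences ran from -0.234 for chromosome 15 to 0.227 for chromosome 4. With chromosome 13 it was 0.073 and with chromosome 14 it was 0.206. These are descriptions over cells that share libraries and depth. The mean ratio over all usable bins was also nearly fixed per cell, at 0.936 ± 0.020 (SD, n = 118). More signal on 1 sequence then leaves less for the others, and the effect on these correlations was not tested.

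Where contact was made, the signal on chromosome 21 lay close to that of bins of like frequency elsewhere. The signal of a bin is its median ratio over the cells in contact, for bins with contact in at least 5 cells. In the 104 bins of the 7 domains it had a median of 2.14, and in the distal part, where 46 of 171 bins had at least 5 such cells, it was 1.68. Among bins at 40 to 80% the median was 2.14 in the 111 bins of chromosome 21 after the gap and 2.097 in 6338 bins elsewhere. The comparison is a description, without a test.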

How the data were processed

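Single-cell LaminB1 DamID was measured in 124 labelled samples, and the authors deposited a table of the ratio of observed to expected reads per 100 kb bin, with columns for 118 cells. The table's name and values gave the unit. The labels do not define the expected part. No profile of unfused Dam entered the comparison, so accessible chromatin may add to the values as far as the ratio leaves it in. Per the submitters' processing notes, cutadapt and Bowtie2 2.1.0 were run and the build is hg19. Their settings are not given in the sources.

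Whole reads were recovered from the ratios: of 1697706 non-zero values, 100% lay within 0.02 of a whole number of reads. No count model was used, because the question is contact per cell and there is a single group. Contact shares were compared within cells by two-sided sign-flip permutation tests (100000 permutations) with Benjamini-Hochberg adjustment over 7 differences, in Python 3.11.15 with numpy 2.4.6, pandas 2.3.3 and scipy 1.17.1. The scripts were tested on simulated data. Cells count as samples, and bins are not replicates. Correlations over cells carry no p. Intervals are exact Clopper-Pearson at 95%.

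The named items were the highest bins, the 5 longest stretches of each class and the extreme cells. Domains, the distal zone and the omission of 4 cells were added after values were seen. The members, the boundary and the lists were chosen with earlier results of these data known. Gene names are RefSeq's, and 98 of 99 listed genes matched. Alternatives changed the contact value, depth, bins, boundary and cells.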

Additional observations from a re-analysis of the deposited data

How the results depend on the processing

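All 12 values were recomputed under 15 alternatives where these apply, 132 values in all, and 118 were counted as kept. A mean run was kept if within 1 SD between cells. This holds for 0.316 Mb after thinning and 0.297 Mb at a contact value of 1.5, against 0.401 Mb. Tests were kept by sign and side of the significance threshold, whatever their size. The proximal over the distal part was 19.1 points at a contact value of 2, for example. Of 79 values from tests, 77 were kept. The exceptions both came from keeping only cells 96 to 124, where the proximal part exceeded the rest of the genome by 2.36 points and chromosome 21 minus chromosome 20 was -0.901 points, and the cause was not tested. The share of bins at 80% or more, 0.282%, was 10.7% at a contact value of 0.5, 0% with a contact value of 2, likewise with a limit of 90%, and 0% without the fifth of bins with the fewest reads behind a value of 1, which removes the bin concerned. It was 1.13% without the cells in which a value of 1 stands for under 3 reads, also 1.13% without the 4 cells with almost no reads on the chromosome, 2.54% in the 90 cells of the first set and 0.563% in the 28 of the second. Over all usable bins, the share at 80% or more was 0.0946% at a contact value of 2. The share of bins at 0% was 8.73% at a contact value of 0.5. The mean run was 0.232 Mb at a contact value of 2 and 0.689 Mb with gaps of 1 bin bridged, and the correlation of the proximal and distal shares was 0.464 at a contact value of 0.5. Thinning every cell to 50000 reads left out 9 cells and gave 30.0 points for the proximal over the distal part. Omitting the 4 cells was chosen after seeing the data. The number of cells limits rare contacts, since 0 of 118 allows 2.54% at 3 counts, and depth limits 14 of the 17 bins before the gap and the bins from 14.3 to 15.4 Mb, where a single read makes a contact in the median cell.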
